A study of Mus musculus with 6 samples.

Results

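The S100 calcium-binding proteins were followed in mouse bladder tumours grown from the murine line NA13, through the 10 family genes that the deposited table of counts lists among 15295 genes: S100a2, S100a4, S100a6, S100a8, S100a9, S100a10, S100a11, S100a13, S100a14 and S100a16. Members were taken by Entrez number and symbol, and all 10 were found. Of the other S100 genes looked for, S100a1, S100a3, S100a7a, S100b and S100g are also in the table, and S100a5, S100a7l2 and S100z are not analysed here. Every gene listed has a count of at least 1 in each library, and being listed is the measured value that the choice rests on. All 10 members also passed the filter on low counts. The members were grouped by their usual source as epithelial (S100a2, S100a14 and S100a16), stromal (S100a4 and S100a6), myeloid (S100a8 and S100a9) and broadly expressed (S100a10, S100a11 and S100a13).

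The study compared 3 tumours from NA13 cells with an shRNA labelled as directed at Ddr2 (shDdr2 1 to 3) with 3 tumours from NA13 cells with a scrambled shRNA (control 1 to 3). All 6 had received IgG, the strain is given as C57BL/6, and no animal ages are given in the sources used here. NA13 is 1 cell line, and the tumours are called xenografts of it although line and strain are both of the mouse, so species does not separate the RNA of tumour and host. Bulk libraries were made from whole homogenised tumours by poly-T selection, with total counts between 15560571 and 19522985. The labels do not tie tumours to animals, so p-values here measure only how these samples spread, in part perhaps for technical reasons.

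S100 proteins are small proteins with a pair of EF-hand loops that bind calcium, and they mostly act as dimers. Inside cells they bind and regulate partners such as annexins and myosin, and some are released and signal through receptors such as TLR4 and the receptor for advanced glycation end products. S100a8 and S100a9 together form calprotectin, the abundant antimicrobial complex of neutrophils and monocytes, S100a14 and S100a16 are known from epithelia, and S100a4 from motile cells, fibroblasts and macrophages. Many family genes sit beside the genes of the cornified envelope of stratified epithelia, in the epidermal differentiation complex.

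The 10 genes lie on mouse chromosome 3 (GENCODE M21 on GRCm38). From 90514435 to 90695721 stand S100a13 (90514435 to 90524581), S100a14 (90526856 to 90528837), S100a16 (90537254 to 90543151), S100a2 (90590247 to 90591508), S100a4 (90603771 to 90606045), S100a6 (90612882 to 90624181) and S100a8 (90668978 to 90670035), all on the plus strand, and S100a9 (90692632 to 90695721) on the minus strand. S100a11 (93520488 to 93526287) and S100a10 (93555080 to 93564643), both on the plus strand, lie at the other side of the complex. S100a2 lies within the span of S100a3 but shares no exonic base with it. S100a4 shares 302 of its 584 exonic bases with Gm42674, a gene model on the same strand that the count table does not list under that name, so the level of S100a4 is uncertain to that extent.

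Promoter windows were at hand from RefSeq (GRCm38.p6) for 7 of the 10 members, in 8 windows of 300 bases that run from 250 bases before to 50 bases after an annotated start. Windows for S100a2, S100a10 and S100a14 were not used here. The windows of S100a8 (chr3:90668821-90669120, plus strand) and S100a9 (chr3:90695672-90695971, minus strand) are shown because both genes stood lower in the tumours labelled shDdr2 without overlap, and those of S100a4 (chr3:90603520-90603819, plus strand) and S100a6 (chr3:90612644-90612943, plus strand) because both were high in the same libraries. Capitals mark matches to any of 4 motifs, searched on both strands.
S100a8: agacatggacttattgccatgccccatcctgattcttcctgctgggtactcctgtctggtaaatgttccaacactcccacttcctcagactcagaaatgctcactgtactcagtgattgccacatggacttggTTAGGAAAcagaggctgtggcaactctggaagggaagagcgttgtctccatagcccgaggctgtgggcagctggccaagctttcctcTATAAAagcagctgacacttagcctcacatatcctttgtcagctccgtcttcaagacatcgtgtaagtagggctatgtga
S100a9: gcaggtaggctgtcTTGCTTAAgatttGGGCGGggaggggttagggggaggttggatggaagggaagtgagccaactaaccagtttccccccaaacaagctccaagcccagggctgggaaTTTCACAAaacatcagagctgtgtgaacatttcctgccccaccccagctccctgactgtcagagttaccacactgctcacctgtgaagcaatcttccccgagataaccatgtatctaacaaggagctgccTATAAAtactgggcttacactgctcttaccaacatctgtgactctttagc
S100a4: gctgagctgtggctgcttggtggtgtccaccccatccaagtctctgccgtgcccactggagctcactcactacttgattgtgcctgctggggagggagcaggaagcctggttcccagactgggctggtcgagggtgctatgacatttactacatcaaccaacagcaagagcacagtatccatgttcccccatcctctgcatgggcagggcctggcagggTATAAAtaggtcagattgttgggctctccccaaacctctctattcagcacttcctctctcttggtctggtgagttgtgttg
S100a6: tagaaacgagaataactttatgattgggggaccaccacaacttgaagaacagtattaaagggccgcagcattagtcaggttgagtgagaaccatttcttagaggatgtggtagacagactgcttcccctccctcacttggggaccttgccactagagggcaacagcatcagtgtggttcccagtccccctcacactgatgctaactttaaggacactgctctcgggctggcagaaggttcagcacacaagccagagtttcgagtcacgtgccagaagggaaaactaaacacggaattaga

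The motifs were the TATA box (TATAAA), a C/EBP pattern (TTNCNNAA), an AP-1 pattern (TGANTCA) and a GC box (GGGCGG), and no matches overlapped in the windows printed. TATAAA starts 30 bases before the RefSeq start in S100a8, 31 bases before it in S100a4, and at the first transcribed base as annotated in S100a9. The GENCODE start of S100a8 (90668978) differs from the RefSeq start and lies within the window, before this TATAAA. It occurs in 3 of the 8 member windows, and in 13.6% of 32851 promoter windows of the same length. The C/EBP pattern occurs in 2 of 8, those of S100a8 and S100a9, against 40.7% of all windows. The AP-1 pattern (2 of 8) and the GC box (3 of 8) occur in 7.81% and 35.7% of all windows. S100a6 holds none of the 4. These are matches of letters only.

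Ddr2, the gene named by the shRNA, was at 4.84, 18.95 and 28.6 CPM (counts relative to the TMM-scaled library total) in the tumours labelled shDdr2 1 to 3, against 6.42, 16.7 and 20.5 CPM in control 1 to 3. Its level thus did not set the groups apart, and each direction below is between libraries as labelled. The library labelled shDdr2 1 had the highest share of counts in 84 ribosomal protein genes, 5.39% against 2.05% to 3.55% in the other 5, and the lowest sum over 12 stromal markers. Same-numbered libraries of the groups deviated together across genes, which is described with the processing. All 8 skeletal muscle markers, led by Acta1, were higher in the tumours labelled shDdr2, where they summed to 921, 3233 and 411 CPM, against 8.52, 60.0 and 88.6 CPM in control 1 to 3. Groups did not overlap in any of the 8, where 2.21% of all genes were higher without overlap. Of the 8, edgeR called 0 and DESeq2 called 4, against 0.276% of 14476 genes, and DESeq2 gave no p for Myh4. The part of muscle tissue in the members' values was not tested.

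Level per transcript length separated the family into an abundant and a scarce set. S100a6, also called calcyclin, led at 3467 CPM per kb (SD 1219, range 2486 to 5464 over 6 libraries). S100a10 (936 ± 649), S100a11 (681 ± 153), S100a14 (666 ± 308), S100a4 (505 ± 347) and S100a16 (288 ± 107 CPM per kb) followed, and the ranges of each pair of neighbours among these 5 overlapped. The range of S100a6 did not reach that of S100a10, and that of S100a16 did not reach down to that of S100a9. The scarce set was S100a9 (44.6 ± 33.6), S100a8 (23.6 ± 11.1), S100a13 (17.2 ± 2.96) and S100a2 (13.8 ± 6.76 CPM per kb), again with overlapping neighbours (all SD, n = 6). Members took 0.706%, 0.346% and 0.358% of all counts in the tumours labelled shDdr2 1 to 3, and 0.606%, 0.423% and 0.383% in control 1 to 3. The libraries numbered 1 were the highest in either group.

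**Figure D1:**
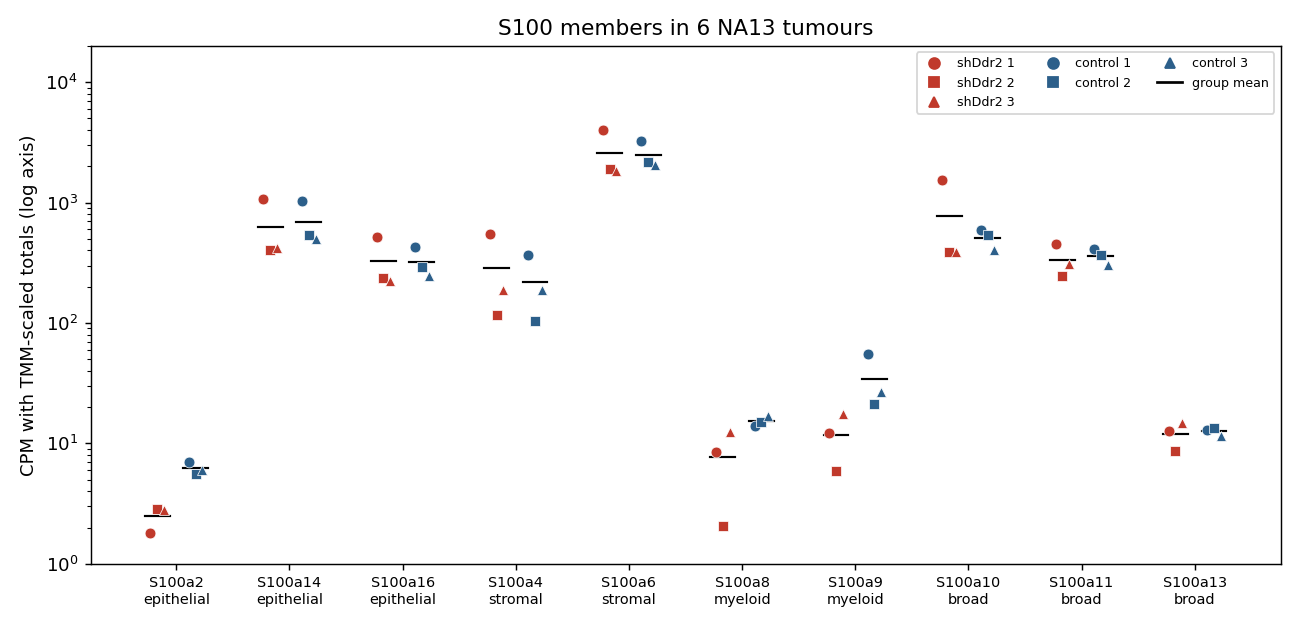
Level of each S100 member (CPM with TMM-scaled totals, log axis) in each of 6 tumours, 3 labelled shDdr2 on the left of each gene and 3 controls on the right, with black bars for group means. S100a2, S100a8 and S100a9 are lower in all 3 tumours labelled shDdr2 than in any control, and the other 7 members overlap.

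No member passed the edgeR quasi-likelihood test, with 0 of 10 called at an adjusted p of 0.05 and each adjusted p at 1.00. Over all 14498 genes tested the test also called 0%, with 209 genes (1.44%) at an unadjusted p under 0.05, of which the lower ones were 0.448% of all genes. S100a2 and S100a9 were among the lower ones. The unadjusted count was 1022 without shDdr2 1, 395 without shDdr2 3 and 262 (1.81%) with the replicate block, and 0 genes were called in each. Values of 3 members, S100a2, S100a8 and S100a9, were lower in every tumour labelled shDdr2 than in every control tumour, and no member was higher without overlap. Over all genes, groups did not overlap in 4.32%, with 2.11% lower and 2.21% higher in the tumours labelled shDdr2. Because the members were chosen with results of these libraries known, the 3 of 10 is given as a description. The median log2 fold change was -0.09 over the members and 0.04 over all genes tested, with 6 members below 0, as were 42.9% of all genes, and 4 above.

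**Figure D2:**
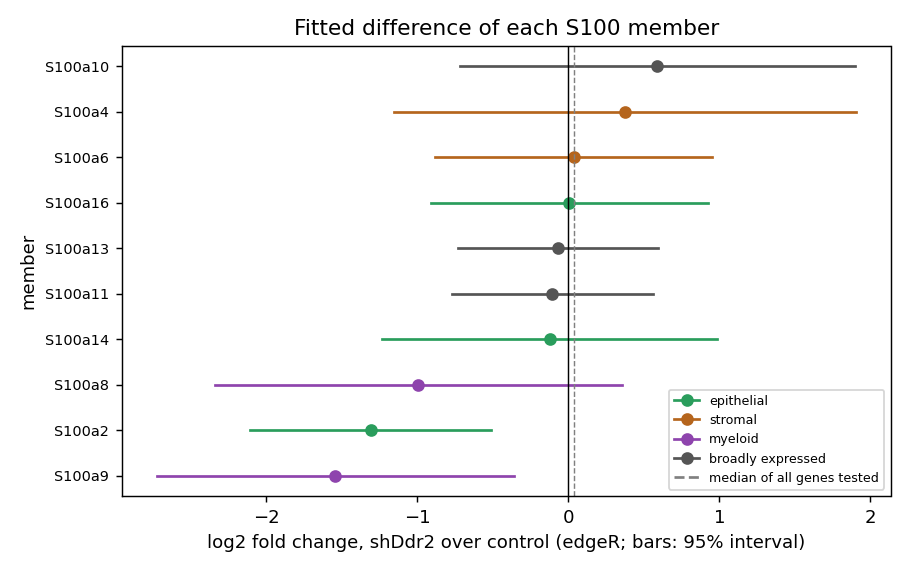
Fitted log2 fold change of shDdr2 over control for each S100 member (dots) with its 95% interval (bars), coloured by group, beside the median of all genes tested (dashed line). S100a9, S100a2 and S100a8 lie lowest, at -1.54, -1.31 and -0.995, and the other 7 lie between -0.12 and 0.59. The intervals of S100a8 and of those 7 span 0.

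The myeloid members, S100a8 and S100a9, were lower in the tumours labelled shDdr2, by 1.27 on the log2 scale as the mean of both (mean log2 fold change -1.27). S100a9 was at 12.1, 5.85 and 17.5 CPM in the tumours labelled shDdr2 1 to 3, against 55.6, 21.2 and 26.6 CPM in control 1 to 3. The highest tumour labelled shDdr2 stayed below the lowest control, and control 1 stood far above the other controls. Group means were 11.8 ± 5.84 and 34.5 ± 18.5 CPM in shDdr2 and control (SD, n = 3 each), a log2 fold change of -1.54 (SE 0.50, 95% interval -2.73 to -0.36). That value was -1.001 without control 1, and its adjusted p was 1.00 with edgeR and 0.541 with DESeq2.

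S100a8, the other subunit of calprotectin, was at 8.52, 2.05 and 12.5 CPM in the tumours labelled shDdr2 1 to 3, against 13.9, 15.1 and 16.8 CPM in control 1 to 3. The controls lay close together, and shDdr2 2 was far below every other tumour, from 42 counts (exact 95% Poisson interval 30.3 to 56.8, counting error only). Means were 7.67 ± 5.26 and 15.3 ± 1.44 CPM in shDdr2 and control (SD, n = 3 each), with a log2 fold change of -0.995 (SE 0.57, 95% interval -2.34 to 0.35) that was -0.54 without shDdr2 2 and -1.54 without shDdr2 3. The ratio of S100a9 to S100a8 counts was 1.42, 2.86 and 1.41 in shDdr2 1 to 3 and 3.99, 1.40 and 1.58 in control 1 to 3, so the subunits did not keep 1 ratio. In control 1 the departure came with a high S100a9, and in shDdr2 2 with a very low S100a8.

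Neutrophil markers moved with S100a8 and S100a9 in part. Summed over the 10 of 15 neutrophil markers in the table, the level was 186, 117 and 400 CPM in shDdr2 1 to 3, and 508, 259 and 483 CPM in control 1 to 3. Of these 10, 0 were called by edgeR or DESeq2, 7 had lower and 3 higher values in the tumours labelled shDdr2, and the median log2 fold change was -0.55, against 0.04 over all genes. Il1b, which encodes interleukin 1 beta, was the 1 marker of the 10 whose groups did not overlap, where 2.11% of all genes were lower without overlap. It was at 19.8, 22.8 and 32.0 CPM in shDdr2 1 to 3 and 44.7, 34.8 and 38.9 CPM in control 1 to 3. The lowest and the highest library were the same for this sum and for S100a8 and S100a9 together, which were at 20.7, 7.89 and 30.0 CPM in shDdr2 1 to 3 and 69.5, 36.3 and 43.4 CPM in control 1 to 3. The marker sum overlapped between groups but was lower in shDdr2 in each same-numbered pair. What the numbers stand for is not given in the sources used here, and the share of all genes with such an order was not counted. The sum is led by Mmp9 and Ltf, which other cells also make. Ly6g, Camp, Ngp, G0s2 and Stfa2l1 are not analysed here. Csf3r, the receptor for granulocyte colony-stimulating factor, was at 4.33, 9.55 and 18.9 CPM in shDdr2 1 to 3 and 8.36, 14.9 and 11.4 CPM in control 1 to 3, which overlap. Cxcr2, the neutrophil receptor for CXC chemokines, was at 11.7, 8.67 and 14.7 CPM in shDdr2 1 to 3 and 11.1, 10.2 and 10.6 CPM in control 1 to 3. The part of neutrophil number in the S100a8 and S100a9 values was not tested, and in bulk samples fewer cells of a type and less RNA per cell cannot be told apart. Which cells of these tumours held the S100a8 and S100a9 RNA was not tested either, and the name myeloid stands for their usual source only. Macrophage markers, 12 of 12 in the table, summed to 711 to 1136 CPM in tumours labelled shDdr2 and 629 to 979.9 CPM in controls, without the order of S100a8 or S100a9. Of these, 7 had higher and 5 lower values in shDdr2, and 0 were called by edgeR or DESeq2. Groups did not overlap in 1, Lyz2, which was higher, at 381 to 458 CPM in shDdr2 and 270 to 291 CPM in control. Over all genes 2.21% were higher without overlap.

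The genes whose pattern over the 6 libraries was most like that of S100a9 were the chemokine genes Cxcl1, Cxcl3 and Cxcl2, with Pparg, a nuclear receptor of urothelial differentiation, next. Likeness was the root-mean-square difference of log2 CPM, each gene centred on its own mean, and was 0.23, 0.24, 0.26 and 0.28 for these 4, against a median of 1.04 over 10395 genes compared. S100a8 was at 0.58 from S100a9, nearer than any other member. Cxcl1, which attracts neutrophils, was at 27.4, 15.0 and 35.1 CPM in shDdr2 1 to 3 and 89.7, 35.1 and 51.1 CPM in control 1 to 3. Like S100a9 it was lowest in shDdr2 2 and highest in control 1.

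Epithelial members did not share 1 pattern. S100a2, known in human as a gene of basal epithelial cells, was at 1.81, 2.87 and 2.81 CPM in the tumours labelled shDdr2 1 to 3, against 7.07, 5.56 and 6.03 CPM in control 1 to 3. All 3 tumours labelled shDdr2 lay well below the lowest control. Counts were low, 25, 59 and 49 in shDdr2 1 to 3 and 131, 93 and 96 in control 1 to 3, and the exact Poisson interval of the 59 in shDdr2 2 (44.9 to 76.1) reaches just into that of the 93 in control 2 (75.1 to 114), before scaling to library totals. Means were 2.498 ± 0.600 and 6.22 ± 0.771 CPM in shDdr2 and control (SD, n = 3 each), a log2 fold change of -1.31 (SE 0.34, 95% interval -2.11 to -0.51). Without any 1 library it stayed between -1.42 and -1.13. DESeq2 called it with an adjusted p of 0.0488, as 1 of 40 genes (0.276% of 14476), and edgeR did not (adjusted p = 1.00).

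S100a14 was at 1064, 403 and 419.5 CPM in the tumours labelled shDdr2 1 to 3, against 1025, 536 and 494 CPM in control 1 to 3. S100a16, its neighbour on the chromosome, was at 514, 235 and 223 CPM in shDdr2 1 to 3, against 430.1, 294 and 244 CPM in control 1 to 3. In both genes the libraries numbered 1 stood far above the rest of either group, and the groups overlapped. Fitted log2 fold changes were -0.12 (SE 0.47) for S100a14 and 0.0057 (SE 0.39) for S100a16, with 95% intervals of -1.23 to 0.99 and -0.91 to 0.92. Both directions turned with the library left out: S100a14 was at -0.74 without shDdr2 1 and 0.31 without control 1, and S100a16 at -0.49 and 0.29. Their count ratio stayed between 1.72 and 2.38 in the 6 tumours.

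Of the 14 epithelial markers, all in the table, 0 were called by edgeR or DESeq2 (3 at an unadjusted edgeR p under 0.05), 11 had lower values in the tumours labelled shDdr2 and 5 of these did not overlap, with a median log2 fold change of -0.52. Over all genes 42.9% were below 0, 2.11% were lower without overlap, and the median was 0.04. An unadjusted edgeR p under 0.05 was found in 1.44% of all genes, and in 0.448% with lower values. The 5 were Epcam, Krt8, Krt18, Cldn4 and Cldn7. Summed, the list was at 11865 to 13025 CPM in tumours labelled shDdr2 and 11930 to 13816 CPM in controls, mostly from the basal keratins Krt5 and Krt14, which overlapped between groups. The part of epithelial differentiation state in the S100a2 value was not tested. The genes most like S100a14 were Crb3, Dbndd2, Rab11a and Acer3, at 0.084, 0.090, 0.11 and 0.11 (median over genes 0.61). Crb3, a polarity protein of epithelial junctions, was at 39.5, 14.8 and 17.8 CPM in shDdr2 1 to 3 and 38.7, 22.4 and 20.0 CPM in control 1 to 3. Both libraries numbered 1 exceeded the other 4 in Crb3, as in 20.7% of all genes tested. S100a6, named stromal here, was also near S100a14, at 0.17.

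The members named stromal did not follow stromal markers. S100a4, also called fibroblast-specific protein or metastasin, was at 548, 117 and 187 CPM in the tumours labelled shDdr2 1 to 3, against 367, 104 and 187 CPM in control 1 to 3. S100a6 was at 3994, 1884 and 1817 CPM in shDdr2 1 to 3, against 3272, 2187 and 2049.9 CPM in control 1 to 3. Both were highest in shDdr2 1, next in control 1, and overlapped between groups. The 12 stromal markers, all in the table and led by Col3a1 and Col1a1, summed to 1713, 4510.2 and 11794 CPM in shDdr2 1 to 3 and to 2888, 5258 and 6190.5 CPM in control 1 to 3. They were thus lowest in the very libraries where S100a4 and S100a6 were highest. Transcripts of Col3a1 and Col1a1 have 5564 and 5930 nt, against 498 and 731 nt for S100a4 and S100a6. In shDdr2 1 and control 1, genes under 1000 nt had median deviations of 0.828 and 0.102 log2 units, and longer genes -0.09 and -0.016. The part of transcript length in this contrast was not tested.

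**Figure D3:**
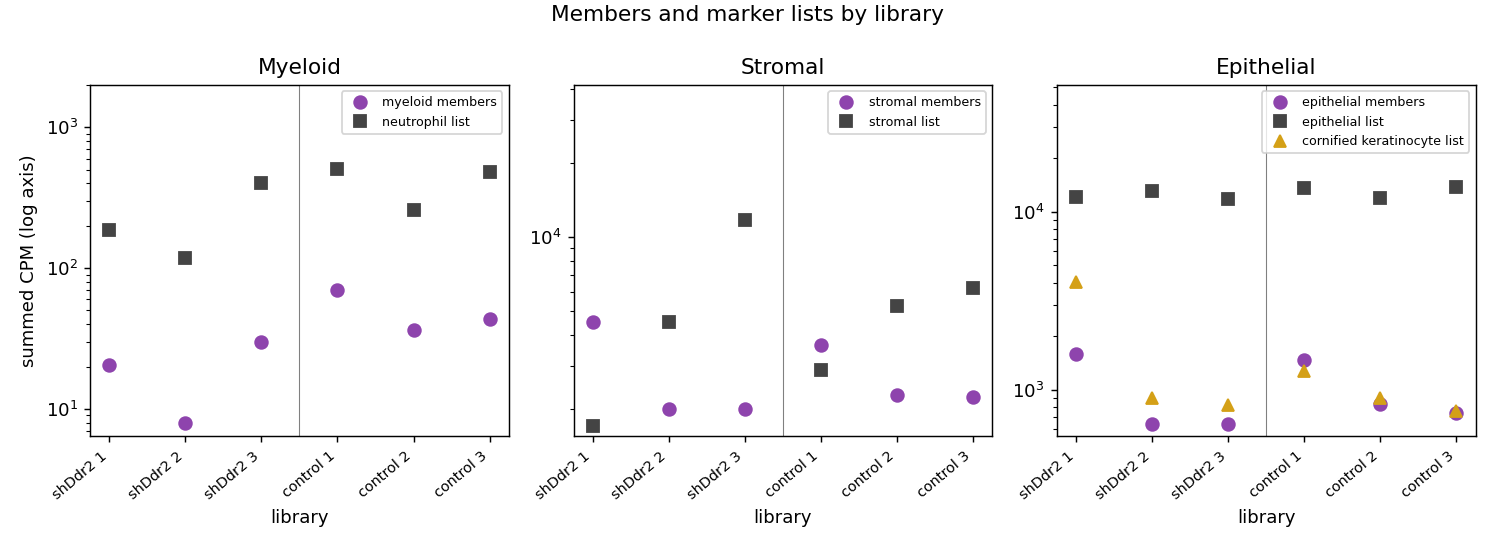
Summed CPM (log axis) of the myeloid, stromal and epithelial S100 members (circles) and of marker lists (squares, and triangles for the cornified keratinocyte list) in each library, shDdr2 left of control. Myeloid members and neutrophil markers are both lowest in shDdr2 2 and highest in control 1, while stromal members are highest in shDdr2 1, where stromal markers are lowest. The part of transcript length in these orders was not tested.

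S100a4 had a fitted log2 fold change of 0.37 (SE 0.65, 95% interval -1.15 to 1.90), which was -0.53 without shDdr2 1 and 0.99 without control 1. S100a6 had 0.04 (SE 0.39, 95% interval -0.88 to 0.95), and -0.44 without shDdr2 1, -0.05 without control 2 and -0.09 without control 3. The direction of S100a4 thus depended on shDdr2 1, and that of S100a6 on any of those 3 libraries. Nearest to S100a4 in pattern were Klk10, a kallikrein-related peptidase, Ly6g6c, Fam83a and Tmprss11g, at 0.17, 0.20, 0.21 and 0.22 (median over genes 0.88). Klk10 was at 233, 50.03 and 74.9 CPM in shDdr2 1 to 3 and 134, 46.4 and 100.01 CPM in control 1 to 3, also highest in the libraries numbered 1. No collagen gene was among the 4.

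Some cornified keratinocyte markers were high where these members were high. The 10 markers, all in the table and led by Krt10 and Krtdap, had 8 higher and 2 lower values in the tumours labelled shDdr2 with 0 called by edgeR or DESeq2, and summed to 4050.02, 901 and 819 CPM in shDdr2 1 to 3 and to 1279, 903 and 758 CPM in control 1 to 3. As with S100a4, S100a6, S100a14 and S100a16, the sum was highest in shDdr2 1 and next in control 1. Marker by marker, 8 of 10 were highest in shDdr2 1, but shDdr2 1 and control 1 both exceeded the 4 other libraries in only 5, and Lor was lowest in control 1, at 5.72 CPM. The part of cornified epithelium in those values was not tested.

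Among the broadly expressed members S100a10 stood out in 1 library. S100a10, which binds annexin A2 at the membrane and whose EF-hands do not bind calcium, was at 1532, 389 and 389 CPM in the tumours labelled shDdr2 1 to 3, against 589, 539 and 407 CPM in control 1 to 3. The value in shDdr2 1 was far above the other 5, which lay close together, and the fitted log2 fold change of 0.59 (SE 0.56, 95% interval -0.71 to 1.89) was -0.39 without that library. Its partner gene Anxa2 was at 1929.7, 1234 and 1432 CPM in shDdr2 1 to 3 and 1839.9, 1599 and 1575 CPM in control 1 to 3, a narrower range. The ratio of S100a10 to Anxa2 counts was 0.794 in shDdr2 1 and between 0.258 and 0.337 in the other 5 libraries.

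S100a11, which takes part in growth control of keratinocytes, was at 453, 243 and 308 CPM in the tumours labelled shDdr2 1 to 3, against 415, 368 and 300.4 CPM in control 1 to 3. S100a13, which aids the release of interleukin 1 alpha and FGF1 outside the classical secretory path, was at 12.7, 8.57 and 14.8 CPM in shDdr2 1 to 3, against 12.998, 13.4 and 11.4 CPM in control 1 to 3. Both varied least among the members over the 6 libraries, with SDs of 0.33 and 0.27 log2 units, against 1.11 for S100a8 and 1.08 for S100a9. Their log2 fold changes were -0.11 (SE 0.28, 95% interval -0.77 to 0.56) and -0.07 (SE 0.28, 95% interval -0.73 to 0.59), and were 0.076 and 0.12 without shDdr2 2. A pseudogene, S100a11-ps, is listed separately at 0.22 to 0.96 CPM, and how reads shared with it were assigned is not given in the sources used here.

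**Figure D4:**
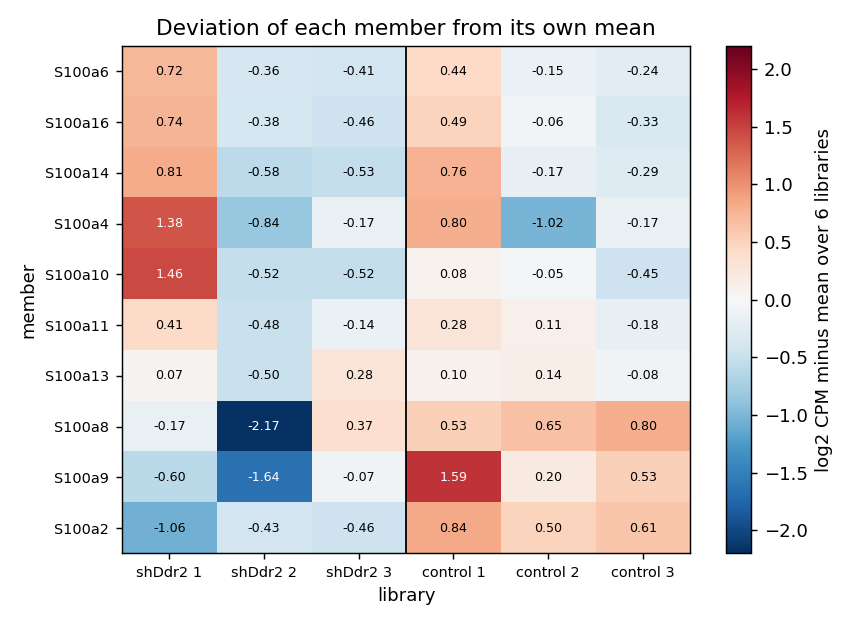
Deviation of each S100 member (rows) from its own mean over the 6 libraries, in log2 CPM, with shDdr2 1 to 3 left of the line and control 1 to 3 right of it. S100a6, S100a16, S100a14 and S100a4 are high in both libraries numbered 1, S100a10 in shDdr2 1, and S100a2, S100a8 and S100a9 are set apart by group, the last pair lowest in shDdr2 2.

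In the 7 members whose groups overlapped, the SD of the tumours labelled shDdr2 exceeded the difference between group means. In 6 of 10 members (S100a4, S100a6, S100a10, S100a11, S100a14 and S100a16) the libraries shDdr2 1 and control 1 both exceeded all 4 others, a grouping noticed after the values were seen. Over all genes tested this held for 20.7% (the library numbered 1 was highest within each group in 23.5%, and in the same 6 members), and for 44.6% of 832 genes with transcripts under 1000 nt, the class that 9 of the 10 members belong to. The member outside that class, S100a16 with 1123 nt, is among the 6. Those short-transcript genes had a median deviation of 0.83, -0.25 and -0.45 log2 units in shDdr2 1 to 3 and 0.10, 0.02 and -0.24 in control 1 to 3, against medians of 0.57, -0.51 and -0.29 in shDdr2 1 to 3 and 0.51, 0.03 and -0.17 in control 1 to 3 over the members. The part of transcript length or RNA quality in the high values was not tested. S100a6 and S100a16 were the closest pair of members (0.06), followed by S100a14 with S100a16 (0.15).

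Of the other S100 genes in the table, S100a3 was, like its neighbour S100a2, lower in the tumours labelled shDdr2 without overlap. It was the only 1 of the 4 tested whose groups did not overlap, where 2.11% of all genes were lower without overlap. S100a3, a protein of the hair cuticle, was at 19.9, 17.6 and 17.7 CPM in the tumours labelled shDdr2 1 to 3, against 42.8, 31.4 and 30.9 CPM in control 1 to 3. The log2 fold change was -0.93 (SE 0.22), with an edgeR adjusted p of 1.00 and a DESeq2 adjusted p of 0.0722. Within the shDdr2 group S100a3 was highest in shDdr2 1, where S100a2 was lowest, but the S100a3 values of that group lay close together. That library had 276 counts of S100a3 to 25 of S100a2, while the ratio of their counts was 5.11 to 6.31 in the other 5 libraries. The exact 95% Poisson interval of those 25 counts was 16.2 to 36.9, for counting error only. S100a1 was at 5.78 to 9.82 CPM over the 6 tumours, S100a7a at 1.51 to 11.4 and S100g at 1.38 to 9.17, and all 3 overlapped between groups. S100b, a marker of Schwann cells, had only 3 to 7 counts per library and did not pass the filter.

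Partners and receptors were taken as a list of 21 genes, all tested. Of these, 0 were called by edgeR or DESeq2 (2 at an unadjusted edgeR p under 0.05), 7 had higher and 14 lower values in the tumours labelled shDdr2, and the median log2 fold change was -0.07. Tlr4, a receptor for calprotectin, was at 41.7, 39.2 and 40.5 CPM in shDdr2 1 to 3 and 63.3, 31.3 and 33.1 CPM in control 1 to 3, and Ager, the receptor for advanced glycation end products, at 0.43 to 0.92 and 0.69 to 1.73 CPM in shDdr2 and control. Neither separated the groups. Cacybp, the binding partner of S100a6, was at 424, 159.5 and 124 CPM in shDdr2 1 to 3 and 195, 183 and 138 CPM in control 1 to 3, highest in shDdr2 1 as S100a6 was. Myh9, the non-muscle myosin chain bound by S100a4, ran the other way, at 214, 686 and 901 CPM in shDdr2 1 to 3 and 403, 632 and 788 CPM in control 1 to 3. Its transcript has 7433 nt, against 498 nt for S100a4, and the part of transcript length in these orders was not tested.

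The cargoes of S100a13 varied more than S100a13 itself. Il1a, which encodes interleukin 1 alpha, was at 8.23, 4.48 and 17.3 CPM in the tumours labelled shDdr2 1 to 3, against 46.4, 9.56 and 19.7 CPM in control 1 to 3, with a log2 fold change of -1.34 (SE 0.67). Its extremes, shDdr2 2 and control 1, were those of S100a9, and the groups overlapped. Il1a was lower in shDdr2 in each same-numbered pair, with an edgeR p of 0.0404 unadjusted and 1.00 adjusted under the replicate block, against 0.0861 unadjusted without it. With the block 1.81% of all genes had an unadjusted edgeR p under 0.05, and the share with such an order in pairs was not counted. Fgf1 was at 0.51 to 7.79 CPM in tumours labelled shDdr2 and 3.17 to 6.35 CPM in controls. The partners whose groups did not overlap were Plau, which encodes urokinase, lower at 103 to 119 CPM in shDdr2 against 143 to 157 CPM in control, and Cd36, a fatty acid receptor, higher at 11.8 to 20.7 CPM against 4.42 to 9.62 CPM in control. Both were named after their values were seen. They make 2 of 21 partners, where 4.32% of all genes did not overlap and 1.44% had an unadjusted p under 0.05.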

How the data were processed

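RNA of 6 tumours was sequenced as paired ends of 150 bp, per the labels' protocols. Bowtie2 2.1.0, RSEM 1.2.31, limma and the build GRCm38.p5 are listed, per the submitters' processing notes, without their roles. The authors deposited whole-number counts by Entrez gene, perhaps rounded from estimates. The strand setting is not given in the sources used here. The authors also deposited log2 values, which were checked to be the scaled count plus 1 and were not used further. Undoing that step gave whole numbers within 0.05 for 91770 of 91770 values, of which 91753 equal the deposited count.

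Symbols came from RefSeq by Entrez number (14876 matched, 419 did not). Genes passing filterByExpr (14498) were scaled by TMM and tested in R 4.3.3 by the robust quasi-likelihood method of edgeR 4.0.16, two-sided, with Benjamini-Hochberg adjustment over all genes and a threshold of 0.05. The test was tried on simulated data. CPM uses the scaled totals. CPM per kb divides by the mean length of GENCODE transcripts that carry a curated RefSeq accession. Log2 CPM for likeness had a prior count of 2, and genes compared had an average log2 CPM of at least 3. Alternatives were DESeq2 1.42.0, voom in limma 3.58.1, other scalings and filters, a replicate block, and leaving out libraries. The common biological coefficient of variation was 35.3%, and 95% intervals of log2 fold changes had a median half-width of 0.755. Libraries of 1 group always differed by more than counting noise (chi-square per degree of freedom 26.3 to 244).

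Replicate numbers come from the titles. Across genes, deviations from the group means correlated between same-numbered libraries with r of 0.299, 0.267 and 0.253 for numbers 1, 2 and 3, above the 0.1 set for treating numbers as pairs, though shDdr2 2 with control 3 gave 0.254. Named genes are the 10 members, the other S100 genes, fixed partners, the 4 genes most like S100a9, S100a4 and S100a14, and leading markers. Further markers were named after their values were seen. The members and lists were chosen with earlier results of these data known.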

Additional observations from a re-analysis of the deposited data

How the results depend on the processing

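Called genes numbered 0 and called members 0 of 10 under every edgeR and voom setting tried, with 13881 to 15295 genes tested, and DESeq2 called 40 genes (34 higher, 6 lower in shDdr2) and 1 member, S100a2. With the replicate block the edgeR counts were 0 genes and 0 members, with S100a2, S100a8 and S100a9 at -1.32, -1.28 and -1.55, and the block changed no other call. Their unadjusted edgeR p under the block was 0.0119, 0.0562 and 0.00562, where 1.81% of all genes were under 0.05. Values given without naming the block are from the fit without it. S100a2, S100a8 and S100a9 stayed below 0 in every alternative run. The other 7 members lie near 0 or rest on 1 library. S100a16 (0.0057) was -0.0099 with upper-quartile factors, -0.073 with library totals alone, -0.065 with the replicate block, -0.049 on voom weights and -0.24 without both libraries numbered 1, a setting chosen after seeing the data. S100a6 (0.04) was -0.041, -0.034 and -0.020 with library totals alone, the block and voom, and -0.21 without both libraries numbered 1, and S100a10 (0.59) was -0.29 in the last setting. With 1 library left out at a time, values ran from -0.49 to 0.29 for S100a16, -0.44 to 0.30 for S100a6, -0.53 to 0.99 for S100a4, -0.39 to 0.91 for S100a10, -0.74 to 0.31 for S100a14, -0.39 to 0.076 for S100a11 and -0.25 to 0.12 for S100a13. The group means ran from -1.75 to -0.88 for the myeloid, -0.79 to -0.20 for the epithelial, -0.48 to 0.64 for the stromal and -0.30 to 0.37 for the broadly expressed members. The epithelial mean, -0.48 with all libraries, rests mostly on S100a2 at -1.31, beside S100a14 at -0.12 and S100a16 at 0.0057. Counts of 25 to 131 limit S100a2, and 3 samples a group limit every comparison.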

Other observations

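The fused-type S100 genes encode long proteins of the cornified envelope that begin with an S100 domain, and 6 of the 7 looked for are in the table, 5 of them tested. By edgeR and by DESeq2 0 of 5 were called, 0 had an unadjusted edgeR p under 0.05 without the replicate block and 1 (Rptn) with it, all 5 overlapped between groups, and 3 had higher and 2 lower values in the tumours labelled shDdr2. Rptn, which encodes repetin, was at 394, 111 and 388 CPM in shDdr2 1 to 3 and 185, 50.7 and 102 CPM in control 1 to 3, with a log2 fold change of 1.40 (SE 0.60). Rptn was higher in shDdr2 in each same-numbered pair, and with the replicate block its edgeR p was 0.00136 unadjusted and 1.00 adjusted, against 0.0504 unadjusted without it. With the block 1.81% of all genes had an unadjusted edgeR p under 0.05, and the share with such an order in pairs was not counted. Hrnr, which encodes hornerin, was at 51.9, 4.63 and 12.3 CPM in shDdr2 1 to 3 and 4.37, 3.58 and 10.6 CPM in control 1 to 3, and its log2 fold change was 1.89 (SE 0.87), with shDdr2 1 far above the other 5. Crnn, which encodes cornulin, was at 108, 72.0 and 186 CPM in shDdr2 1 to 3 and 293, 90.9 and 115 CPM in control 1 to 3, highest in control 1. Flg, which encodes filaggrin, was at 45.3, 51.1 and 77.3 CPM in shDdr2 1 to 3 and 66.3, 57.5 and 121 CPM in control 1 to 3, and Tchh, which encodes trichohyalin, at 18.1 to 48.1 CPM in shDdr2 and 27.0 to 31.5 CPM in control. Crnn was not high in shDdr2 1 and Rptn was also high in shDdr2 3, so the fused-type genes did not share the order of S100a14 and S100a16.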
